A study of Mus musculus with 29 samples.

Results

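The genes described are 7 genes of the hair cell ribbon synapse, Otof, Slc17a8, Cacna1d, Cabp2, Ctbp2, Bsn and Pclo, out of 22350 protein-coding genes annotated on chromosomes 1 to 19 and X. They were chosen by name, and the measurement is the position of ChIP-seq summits in the gene body or within 50 kb of it in mm9. Chromatin immunoprecipitation followed by sequencing (ChIP-seq) locates the DNA that a protein occupies, and a summit is the base of a peak with the most overlapping fragments. The 6 mouse embryonic stem cell lines came from the A2loxCre parent and each carried 1 doxycycline-inducible cassette that ended in the Venus reporter. The cassette held Atoh1 in iAtoh1, Pou4f3 in iPou4f3, Gfi1 with Atoh1 in iG+A, Gfi1 with Pou4f3 in iG+P, Pou4f3 with Atoh1 in iP+A, and all 3 factors in iGPA. All cultures, those for the input libraries included, were harvested as embryoid bodies, clusters in which stem cells differentiate together, on day 6, with 2 µg/ml doxycycline present for the last 48 h. Atoh1 was precipitated through a FLAG tag in 4 lines, Pou4f3 through a Myc tag in 4 lines, while Gfi1 carried no tag and was precipitated by its own antibody in iGPA alone, from 1 library. The other 8 lists each came from 2 ChIP libraries. Embryoid bodies are not hair cells, the factors were transgenes under doxycycline, and the lists hold no expression values, so neither the cell type nor the activity of a gene could be checked in them.

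Each of the 9 peak lists was called by the authors on merged replicates, and a list therefore has no spread between replicates. No test between lists was possible, and errors below are exact 95% intervals that cover counting error only. The authors deposited all called peaks and a smaller set of kept summits, and the counts below are of kept summits. The number kept ran from 15568 to 32632 in the Atoh1 and Pou4f3 lists and was 3012 in the Gfi1 list. Absence of a summit means only that no kept peak stood there. The fewest fragments at any kept summit, over the whole genome, were 17 to 21 in the Atoh1 and Pou4f3 lists and 14 in the Gfi1 list. Fragment counts were recovered from the deposited values, were not scaled to depth, and are set beside the background recovered with them. Fold enrichment is the ratio of both, each raised by 1. At many sites, those of Otof and Slc17a8 among them, the background was the most frequent value of the list and not particular to the place.

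Inner hair cells signal sound to the auditory nerve without spikes, through synapses in which an electron-dense ribbon holds synaptic vesicles next to calcium channels. Depolarisation opens L-type channels, whose pore is encoded by Cacna1d. Calcium then acts on otoferlin, the product of Otof, in vesicle fusion and vesicle supply, while CaBP2, a calmodulin-like protein encoded by Cabp2, modulates the channel. Slc17a8 encodes the transporter that fills the vesicles with glutamate. RIBEYE, the main protein of the ribbon, is made from Ctbp2, and bassoon and piccolo, encoded by Bsn and Pclo, are large scaffold proteins of the active zone. Atoh1, Pou4f3 and Gfi1 are transcription factors needed for hair cells to form or survive.

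The sites on which the results turn are shown as genome sequence of build NCBIM37 (mm9), plus strand, 150 bases centred on the strongest summit unless a shorter length is stated. They are the site found in the most lists in 6 genes, with ties settled by fold enrichment, and 1 further site each of Cacna1d, Ctbp2 and Pclo with the highest fold enrichment for 1 factor. At sites from Atoh1 lists the capitals mark a 6-letter E-box core, which is CAGATG on either strand (CATCTG when read on the other) or one of the palindromes CAGCTG and CATATG, the kind of sequence that basic helix-loop-helix factors such as Atoh1 bind. At sites from Pou4f3 lists they mark a match to ATAATTAAT on either strand with at most 1 mismatch, as Pou4f factors bind AT-rich sequence of this kind.
Otof intron, Pou4f3, chr5:30727148-30727297: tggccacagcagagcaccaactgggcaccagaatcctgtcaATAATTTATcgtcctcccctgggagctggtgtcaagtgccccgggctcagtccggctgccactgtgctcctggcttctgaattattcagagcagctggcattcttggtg
Slc17a8 start, Pou4f3, chr10:89084132-89084281: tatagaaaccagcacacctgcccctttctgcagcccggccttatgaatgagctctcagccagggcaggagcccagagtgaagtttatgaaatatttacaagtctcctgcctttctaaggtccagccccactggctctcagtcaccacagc
Cabp2 start, Pou4f3 and Atoh1, 112 bases that end before the first exon, chr19:4081466-4081577: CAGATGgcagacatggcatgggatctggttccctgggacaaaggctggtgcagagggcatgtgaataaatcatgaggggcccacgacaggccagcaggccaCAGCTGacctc
Cacna1d intron, Pou4f3, chr14:30860230-30860379: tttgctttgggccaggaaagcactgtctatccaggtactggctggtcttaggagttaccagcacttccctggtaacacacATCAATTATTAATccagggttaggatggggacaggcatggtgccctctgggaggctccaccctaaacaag
Cacna1d intron, Atoh1, chr14:30950353-30950502: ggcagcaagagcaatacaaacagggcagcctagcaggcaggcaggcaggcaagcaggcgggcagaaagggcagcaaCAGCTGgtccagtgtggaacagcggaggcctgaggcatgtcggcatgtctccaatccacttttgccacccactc
Ctbp2 intron, Atoh1 and Pou4f3, chr7:140195233-140195382: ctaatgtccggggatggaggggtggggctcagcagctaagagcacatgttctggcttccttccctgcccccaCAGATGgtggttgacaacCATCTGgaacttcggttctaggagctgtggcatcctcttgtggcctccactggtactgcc
Ctbp2 downstream flank, Pou4f3, chr7:140141810-140141959: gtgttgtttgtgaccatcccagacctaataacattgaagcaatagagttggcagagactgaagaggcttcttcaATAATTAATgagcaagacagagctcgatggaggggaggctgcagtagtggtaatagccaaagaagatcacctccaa
Bsn downstream flank, Pou4f3, chr9:107964534-107964683: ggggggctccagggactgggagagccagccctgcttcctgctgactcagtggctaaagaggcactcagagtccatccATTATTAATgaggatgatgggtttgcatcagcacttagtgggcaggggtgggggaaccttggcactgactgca
Pclo intron, Pou4f3, chr5:14626031-14626180: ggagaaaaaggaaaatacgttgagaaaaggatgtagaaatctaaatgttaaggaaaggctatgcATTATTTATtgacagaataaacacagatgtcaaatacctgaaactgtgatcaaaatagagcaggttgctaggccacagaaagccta
A last site, at an internal start of Ctbp2, is outside that rule and was chosen after its values were seen. It lies in an annotated untranslated exon, so only 30 bases are shown, chr7:140207030-140207059: gcacgacctaaATTATTAATcctctgaaac

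Over the 9 lists, 197 of 175162 kept summits lay in the windows of the 7 genes, and they formed 85 sites when 300 bp windows that shared at least 1 bp were joined. Pou4f3 summits stood at all 7 genes in iPou4f3, iG+P and iGPA and at 6 of 7 in iP+A. There Cacna1d had no kept summit but 2 called peaks that were not kept. Atoh1 summits stood at 5 of 7 genes in each of the 4 Atoh1 lists, and Otof and Slc17a8 had none in any of them. Gfi1 summits stood at 2 of 7 genes, Cabp2 and Pclo. These counts have to be read against how often any gene has a summit within such a window: 63.2% of all protein-coding genes in the Pou4f3 list of iGPA, 58.8% in that of iP+A, 76.7% for iG+P and 72.8% for iPou4f3. For the Atoh1 lists the share was 72.2% in iGPA, 62.7% in iP+A, 65.8% for iG+A and 53.1% for iAtoh1, and for Gfi1 it was 23.2%. The members are also longer than most genes, with a median body of 95 kb against 15.4 kb.

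**Figure D1:**
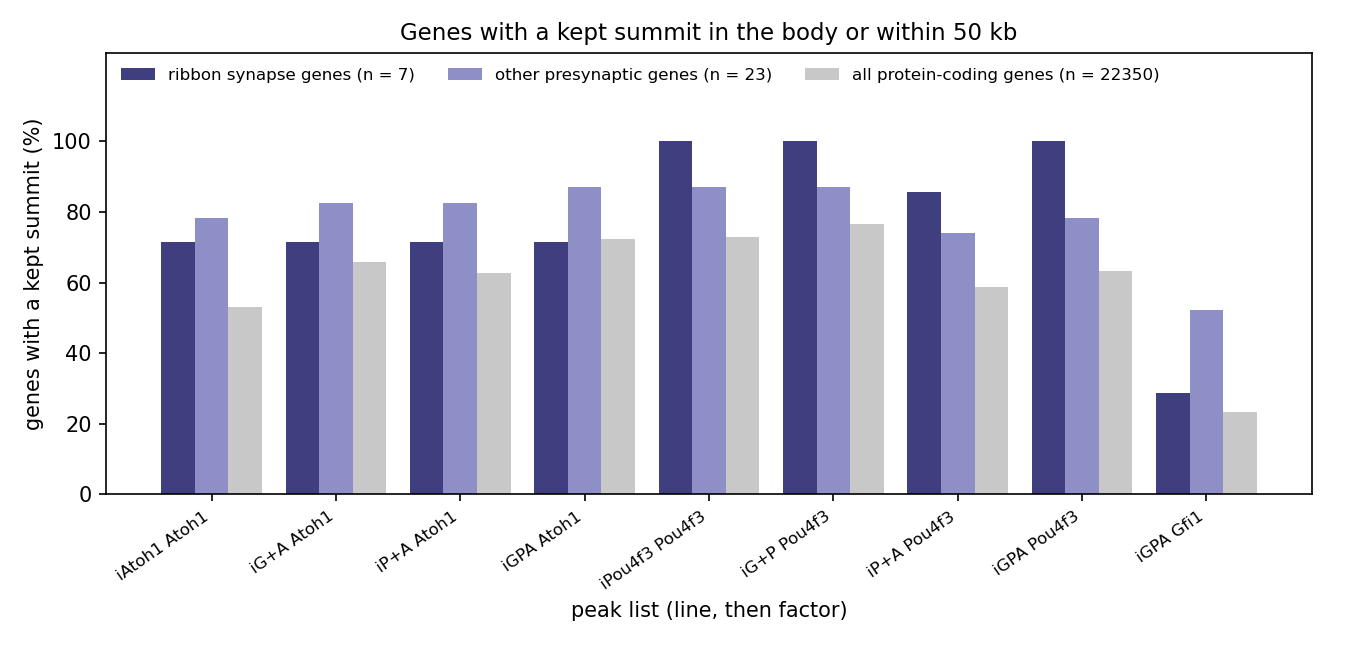
Percent of genes with a kept summit in the body or within 50 kb, by peak list, for the 7 ribbon synapse genes, 23 other presynaptic genes and all 22350 protein-coding genes. The members are at or above the share of all genes in 8 of the 9 lists and just below it in the Atoh1 list of iGPA, 5 of 7 against 72.2%.

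Otof and Slc17a8 had Pou4f3 summits in all 4 Pou4f3 lists and none from any Atoh1 list, and 9.15% of all protein-coding genes likewise had a summit in at least 1 Pou4f3 list and in no Atoh1 list. Neither window held a called Atoh1 peak that was not kept. This absence depended on the 50 kb limit. With 100 kb to each side, genes with an Atoh1 summit were 6 of 7 in iAtoh1 and iG+A. In iP+A and iGPA they were 7 of 7. The share of all protein-coding genes at 100 kb was not computed. Cabp2, Ctbp2, Bsn and Pclo had summits in all 8 lists of Atoh1 and Pou4f3, and Cacna1d in 7 of them. A summit in all 4 Pou4f3 lists was found at 47.4% of all genes and a summit in all 4 Atoh1 lists at 42.7%. No member had Atoh1 summits without Pou4f3 summits, which 5.83% of all genes had, and no member lacked both, as 9.12% did.

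**Figure D2:**
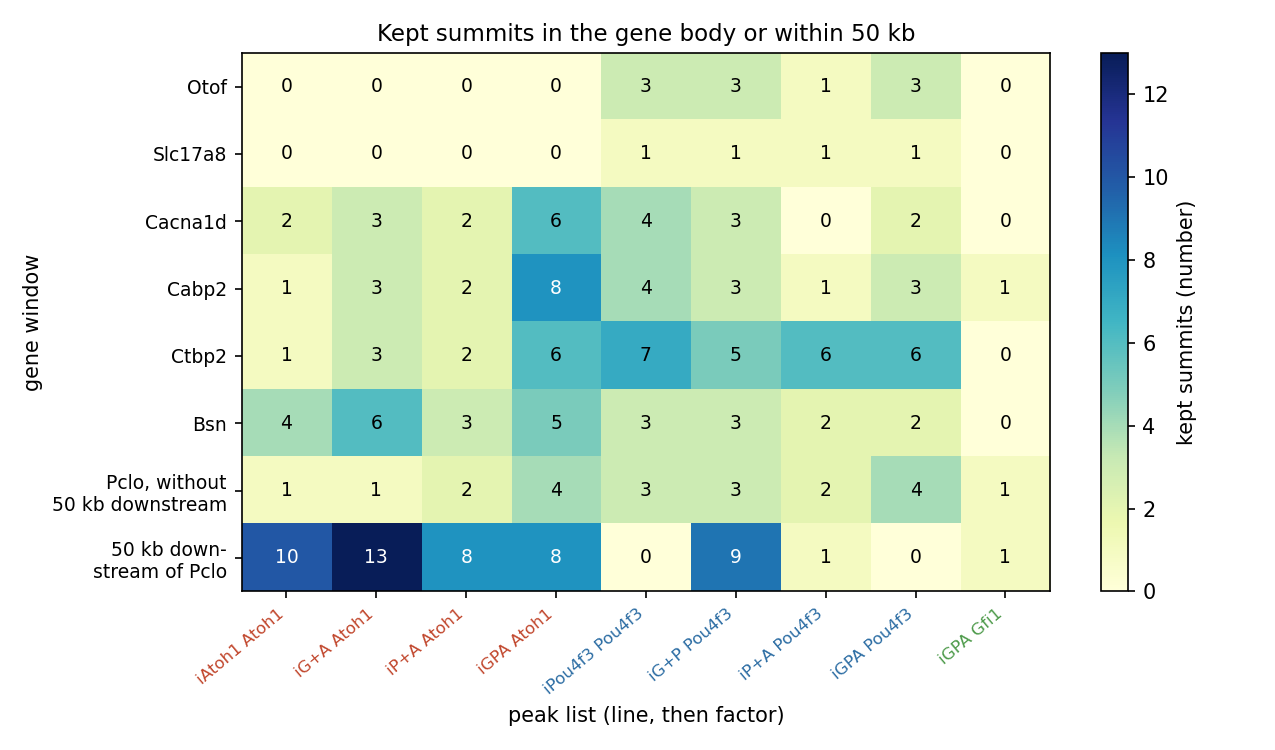
Number of kept summits in each gene window (rows) and peak list (columns), with the 50 kb downstream of Pclo as a row of its own. Otof and Slc17a8 are at 0 in the 4 Atoh1 columns, and the row downstream of Pclo holds 8 to 13 summits in each Atoh1 list, 9 in the Pou4f3 list of iG+P and at most 1 in the others.

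Of the 197 summits, 50 lay in the 50 kb downstream of Pclo, in a run of 24 sites that began at chr5:14871579, ended at chr5:14902897 and spanned 31.3 kb. It held 10, 13, 8 and 8 summits in the Atoh1 lists of iAtoh1, iG+A, iP+A and iGPA, and 9 in the Pou4f3 list of iG+P, but 0, 1 and 0 in the Pou4f3 lists of iPou4f3, iP+A and iGPA. Fold enrichment there was 2.41 to 4.52. At 1 site of the run, chr5:14900039-14900345, the local background reached 4.1 times the usual value of the list for Atoh1 in iGPA and 5.7 times for Gfi1. At the other sites of the run it was at most 1.39 times the usual value. A further 128 called peaks that were not kept stood in the same 50 kb, against 11 in all the rest of the member windows. Of the 24 sites, 2 held the 10-letter Atoh1 E-box and 1 the Pou4f pattern. What this run of peaks reflects was not tested. It was set apart after the data were seen, so shares over sites are given without it and, where they move, with it. With the run the lists had 19, 29, 19 and 37 Atoh1 summits (iAtoh1, iG+A, iP+A, iGPA), 25, 30, 14 and 21 Pou4f3 summits (iPou4f3, iG+P, iP+A, iGPA) and 3 Gfi1 summits at the members. Without it the same lists had 9, 16, 11 and 29 Atoh1 summits, 25, 21, 13 and 21 Pou4f3 summits and 2 Gfi1 summits.

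Scaled to list length and without the run, the members held 0.111% of the Atoh1 summits of iGPA (0.0741 to 0.159), 0.0581% of those of iP+A (0.029 to 0.104), 0.0781% for iG+A (0.0446 to 0.127) and 0.0579% for iAtoh1 (0.0265 to 0.11). With the run the members held 0.141%, 0.1%, 0.142% and 0.122%, listed likewise, so the lead of iGPA over iG+A was present only without it. With Atoh1 and Pou4f3 lists cut to equal length, and the run included, the Atoh1 summits at members were 17, 17, 22 and 19. For Pou4f3 the share without the run was 0.112% in iGPA (0.0694 to 0.171), 0.0762% in iP+A (0.0406 to 0.13), 0.0644% for iG+P (0.0399 to 0.0984) and 0.111% for iPou4f3 (0.0722 to 0.165). For each factor the intervals of the 4 lists overlap. Per Mb of window and without the run, the members had 15.9 Atoh1 summits in iGPA against 13.7 over the windows of all genes, and fewer than all genes elsewhere, with 6.01 against 9.56 in iP+A, 8.75 against 10.7 for iG+A and 4.92 against 7.87 for iAtoh1. With the run they had more than all genes in each of these lists, at 19.7, 10.1, 15.4 and 10.1. For Pou4f3 the members without the run had more in iPou4f3 (13.7 against 11.2) and iGPA (11.5 against 8.78), and fewer in iG+P (11.5 against 15.8) and iP+A (7.11 against 8.2). With it the value for iG+P was 16.0, above that of all genes.

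**Figure D3:**
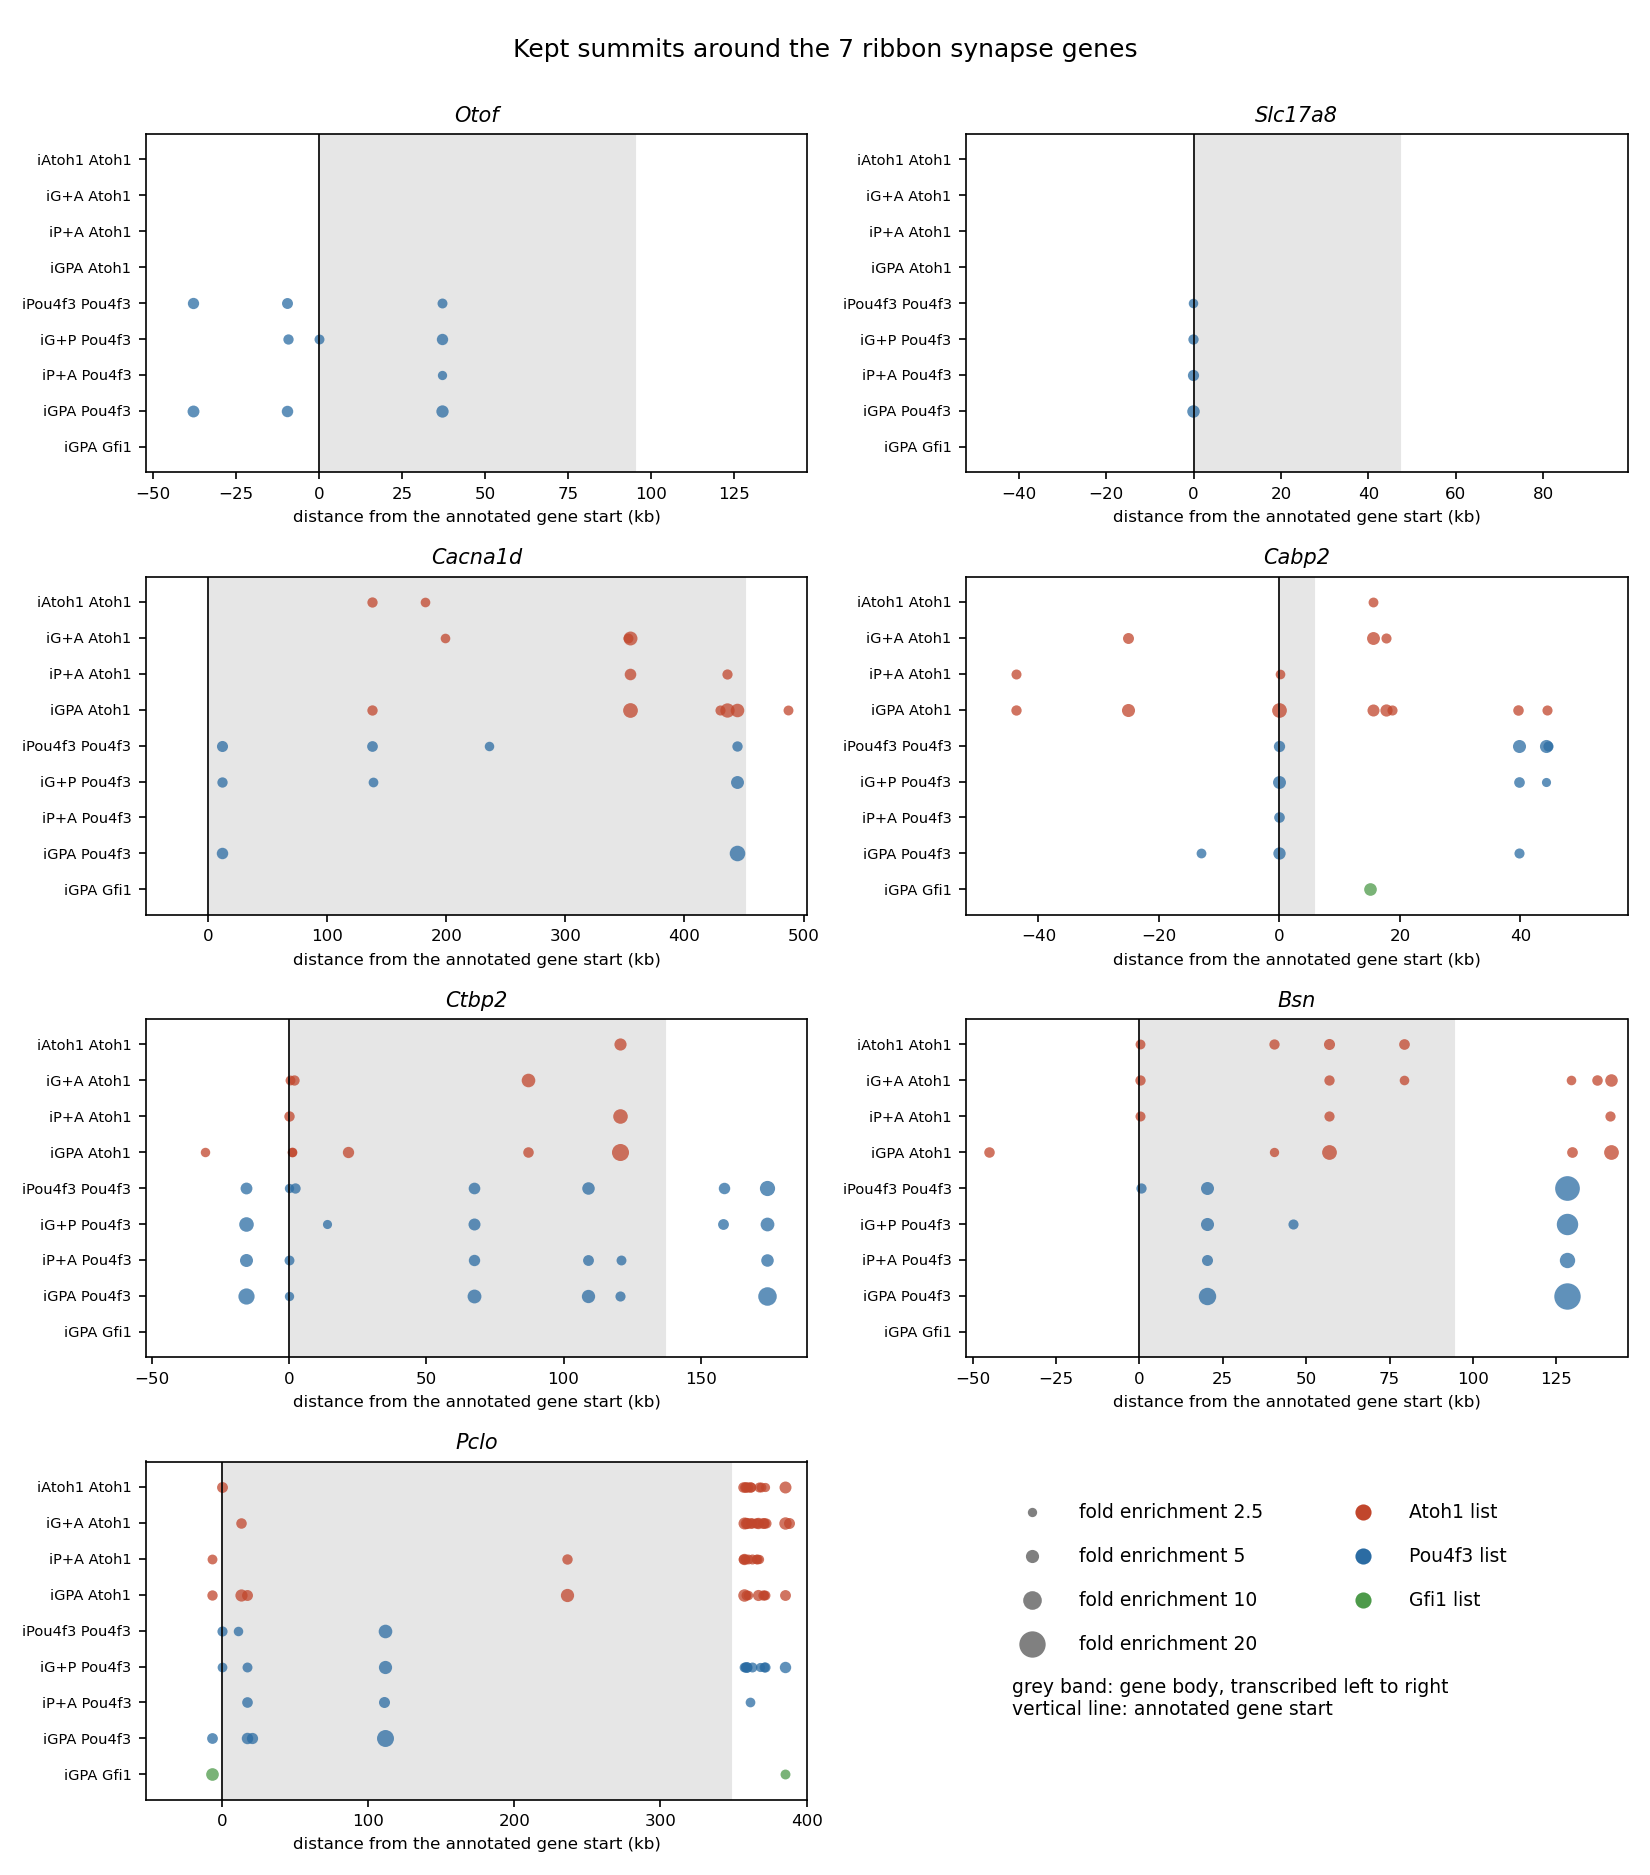
Position of each kept summit as distance from the annotated gene start in kb, 1 panel a gene, with the 9 lists as rows, point area in proportion to fold enrichment and the gene body in grey. Slc17a8 has a single position at its start in the 4 Pou4f3 lists, the summits of Otof are all from Pou4f3 lists, and the largest points are those downstream of Bsn.

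Cacna1d lies on the minus strand at chr14:30853135-31304342, a body of 451 kb, and had 13 Atoh1 and 9 Pou4f3 summits in 13 sites. The site in the most lists for Pou4f3 was an intron site in the 3′ part of the gene, chr14:30860119-30860508, 444037 bp from the gene start. Fold enrichment over background was 3.09 in iPou4f3, 4.82 in iG+P and 6.99 in iGPA, from 25, 43 and 47 fragments, and iP+A had no summit. The intervals of 25 fragments (16.2 to 36.9) and 47 fragments (34.5 to 62.5) overlap. The printed sequence holds a pair of overlapping Pou4f matches 9 bp from the summit. An Atoh1 summit of fold 5.29 formed the adjoining site, chr14:30859819-30860118, in iGPA alone.

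The strongest Atoh1 site of Cacna1d, chr14:30950278-30950586, was also intronic. Its fold enrichment was 6.26 in iGPA from 57 fragments (43.2 to 73.9), 5.61 in iG+A from 41 (29.4 to 55.6) and 3.87 in iP+A from 35 (24.4 to 48.7), with summits within 9 bp of each other. The iAtoh1 list, from the line with Atoh1 alone, had no peak there. An E-box core, part of a full 10-letter Atoh1 E-box, lay 4 bp from the summit. A further intron site, chr14:30868157-30868478, had Atoh1 summits in both lines that also carried Pou4f3 and in neither of the others, with fold 3.01 in iP+A and 5.91 in iGPA. Near the internal start of Cacna1d, summits lay 224 to 281 bp upstream of it, with fold 3.05 for Atoh1 in iAtoh1, 3.08 for Atoh1 in iGPA and 3.33 for Pou4f3 in iPou4f3. One intron site of Pou4f3 in 3 lists, 11631 bp inside Cacna1d, lay 40 bp from the start of Dcp1a, a gene for an mRNA decapping protein. In iP+A a Pou4f3 peak was called at this site but not kept.

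Otof lies on the minus strand at chr5:30669351-30764305 and had 10 summits in 4 sites, all from Pou4f3 lists. An intron site 37082 bp from the gene start was present in every Pou4f3 list. It had 23 fragments in iPou4f3 (fold 2.85), 33 in iG+P (fold 3.72), 21 in iP+A (fold 2.49) and 29 in iGPA (fold 4.37). The 4 intervals overlap, so the lines could not be ordered by this site. A Pou4f match lay 30 bp from the summit of iGPA. Another site, 9444 bp upstream of the start and inside 1700001C02Rik, had fold 3.45, 3.06 and 3.79 in iPou4f3, iG+P and iGPA. The farthest, 37975 bp upstream and inside Cib4, had fold 3.68 in iPou4f3 and 4.08 in iGPA. At the Otof start itself, 72 bp upstream, a summit was kept only in iG+P, with 25 fragments and fold 2.85. The highest fold at Otof, 4.37, was the lowest such maximum of the 7 genes, beside 4.51 at Slc17a8.

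Cabp2 is short, 5.76 kb on the plus strand at chr19:4081578-4087340, and its window holds 7 other protein-coding genes, Cabp4 among them. Its start carried the only site of all 7 genes that was found in 6 lists. The Pou4f3 summits lay 71, 37, 33 and 17 bp upstream of the start in iG+P, iP+A, iPou4f3 and iGPA. They had 30 fragments in iPou4f3 (fold 3.68), 43 in iG+P (fold 4.82), 28 in iP+A (fold 3.28) and 40 in iGPA (fold 4.39). Atoh1 summits stood at the same site in iGPA, with 50 fragments (37.1 to 65.9) and fold 6.25, and in iP+A, with 24 fragments (15.4 to 35.7) and fold 2.69. The lines without Pou4f3, iAtoh1 and iG+A, had no called Atoh1 peak there, kept or not. In iGPA the Atoh1 and the Pou4f3 summit were 20 bp apart. The printed stretch holds 2 E-box cores and no Pou4f match.

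Away from its start, the window of Cabp2 had an Atoh1 site 15557 bp downstream of the start, 47 bp from a start of Cdk2ap2, with fold 2.81 in iAtoh1, 4.81 in iG+A and 4.18 in iGPA. The Gfi1 summit of Cabp2 was in the neighbouring site, chr19:4096483-4096782, 549 bp from a start of Cdk2ap2, with 20 fragments (12.2 to 30.9) and fold 4.62. No Atoh1 or Pou4f3 list had a kept summit in that site, and a Pou4f3 peak of iGPA was called there but not kept. Of the 10 sites in this window, 1 had a Cabp2 start as the nearest annotated start.

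**Figure D4:**
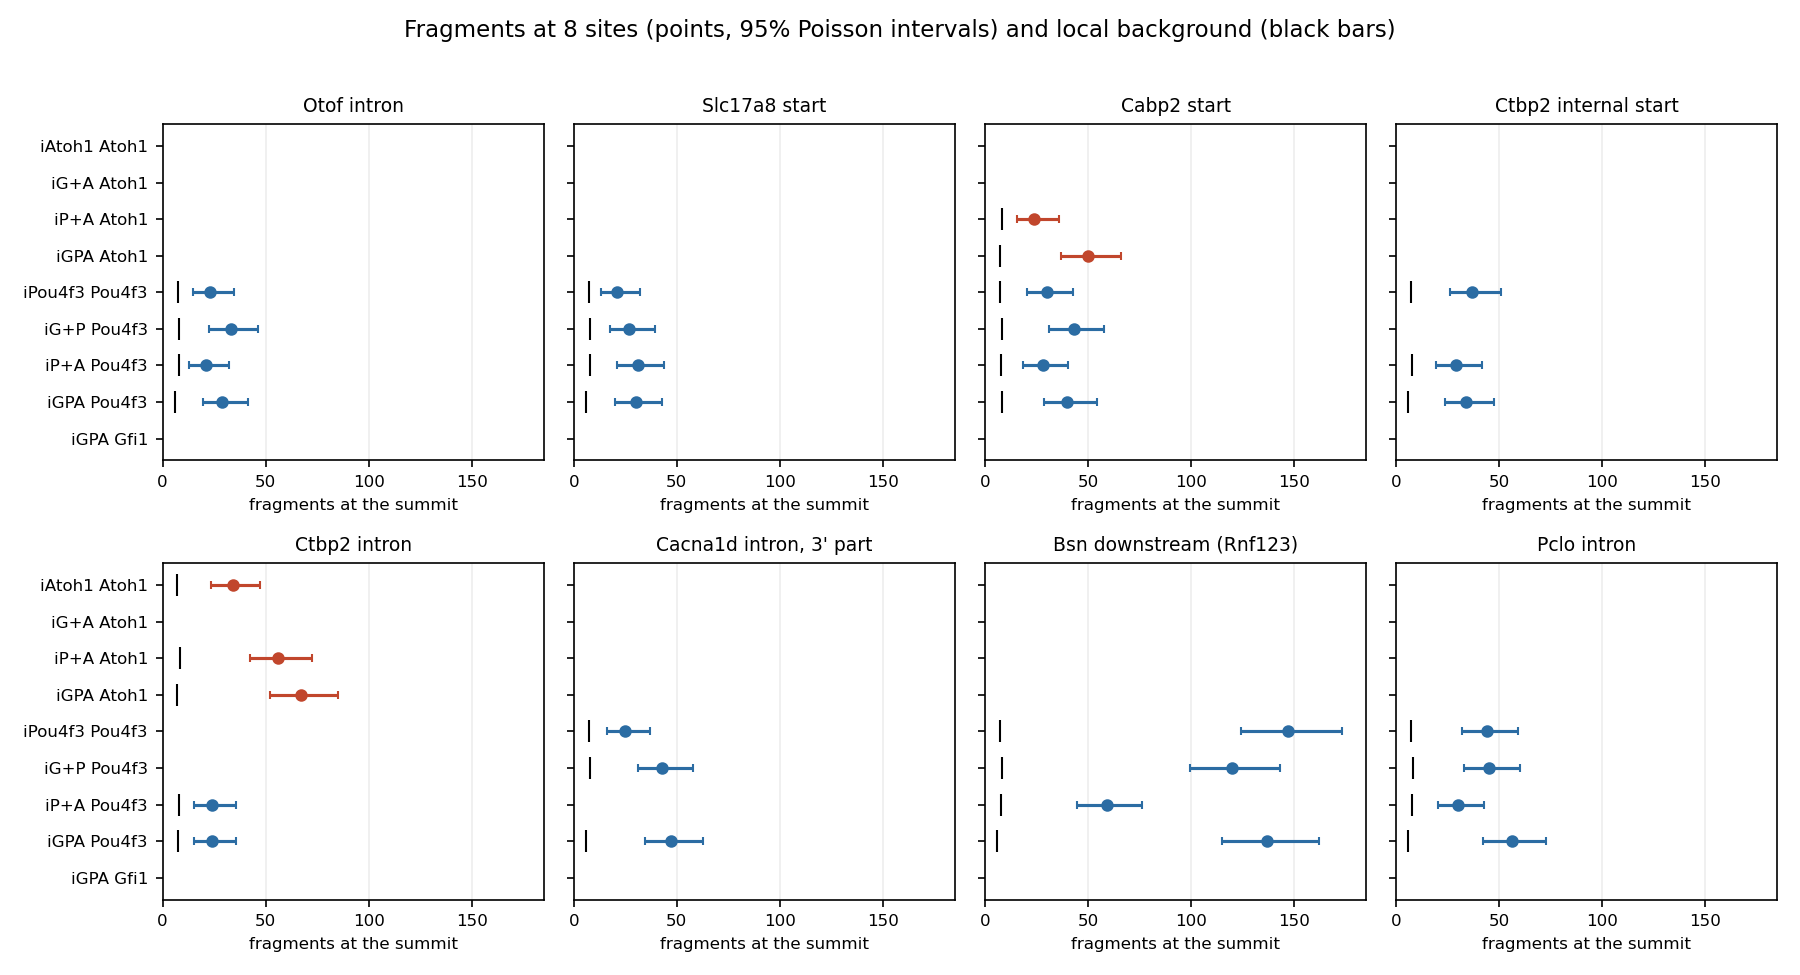
Fragments at the summit of 8 sites (points, red for Atoh1 and blue for Pou4f3) with 95% Poisson intervals and the recovered background (black bars), by peak list. The background was often the most frequent value of the list. Sites were picked in part for their highest fold, which favours the list that supplied it. Most intervals of 1 factor at 1 site overlap, and the exceptions are Atoh1 at the Cabp2 start (24 fragments in iP+A, 50 in iGPA), Atoh1 at the Ctbp2 intron site (34 in iAtoh1, 67 in iGPA) and Pou4f3 downstream of Bsn (59 in iP+A, 120 to 147 in the others).

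Slc17a8 lies on the minus strand at chr10:89036765-89083998 and had 1 site in 147 kb of window. It was a Pou4f3 site 179 to 209 bp upstream of the annotated start, present in all 4 Pou4f3 lists. The fragment counts were 21 in iPou4f3 (13 to 32.1), 27 in iG+P (17.8 to 39.3), 31 in iP+A (21.1 to 44.0) and 30 in iGPA (20.2 to 42.8), with fold 2.61, 3.06, 3.62 and 4.51. Fold was highest in iGPA while its count was not, since the background was 5.87 fragments in that list and 7.41 to 8.14 in the others. The summits fell within 30 bp of each other although no Pou4f match stood in the 250 bp around them.

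Ctbp2 lies on the minus strand at chr7:140179246-140316037, with 21 annotated transcripts, and had 12 Atoh1 and 24 Pou4f3 summits in 14 sites. The transcription factor CtBP2 is made from starts at the 5′ end of the gene, and RIBEYE from an internal start whose first coding exon is long. Of the annotated transcripts 1 had a coding exon over 1 kb, Ctbp2-004, whose exon of 1687 bp follows a start at position 140206931. The annotation does not call it RIBEYE. Another pair of transcripts starts nearby, at position 140207173. A Pou4f3 site lay 92 to 113 bp upstream of the start of Ctbp2-004 and inside the transcripts that start at 140207173, with 37 fragments in iPou4f3 (26.1 to 51.0, fold 4.52), 29 in iP+A (19.4 to 41.6, fold 3.40) and 34 in iGPA (23.5 to 47.5, fold 5.10). The iG+P list had no called peak there and no Atoh1 list had one. A match to the Pou4f pattern lay 11 bp from the strongest summit, and it is in capitals in the 30 bases shown. The 5′ cluster of starts had only weaker summits, of fold 2.46 to 3.12, spread over 4 sites and both factors.

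A pair of Ctbp2 sites were found in 5 lists, 1 at the 5′ starts and a stronger one in an intron, chr7:140195040-140195480, 11623 bp downstream of the start of Ctbp2-004. Atoh1 had 34 fragments there in iAtoh1 (23.5 to 47.5, fold 4.28), 56 in iP+A (42.3 to 72.7, fold 6.13) and 67 in iGPA (51.9 to 85.1, fold 8.37), the highest Atoh1 fold at any member. The intervals of iAtoh1 and iGPA do not overlap, but the counts are not scaled to depth and rest on 1 merged list each. The site was also picked for its highest fold, that of iGPA, which favours iGPA in this comparison. Pou4f3 had 24 fragments in iP+A and in iGPA, of fold 2.83 and 2.96, and no summit in iPou4f3 or iG+P. The Atoh1 and Pou4f3 summits were 134 bp apart in iP+A and 12 bp apart in iGPA. In iG+A an Atoh1 peak was called at this site but not kept.

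Pou4f3 was present in all 4 lists at 3 further Ctbp2 sites. At an intron site 67287 bp from the gene start, fold was 3.92 for iPou4f3, 4.16 for iG+P, 3.74 for iP+A and 5.53 for iGPA. At a site 15691 bp upstream of the gene, fold was 4.04, 6.13, 4.87 and 7.57 in the same order. The strongest was in the downstream flank, 618 bp from a start of Zranb1, with fold 6.66, 5.47, 4.53 and 9.90 from 55, 49, 39 and 67 fragments. It holds ATAATTAAT without a mismatch 3 bp from the summit. One annotated transcript of Fgfr2 reaches over Ctbp2, so the sites in the body and downstream flank of Ctbp2 are, with 1 exception at the first start, also inside Fgfr2 in this annotation.

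Bsn lies on the minus strand at chr9:107998354-108092715 and had 18 Atoh1 and 10 Pou4f3 summits in 11 sites. Its window contained the strongest site of all 7 genes, a Pou4f3 site at chr9:107964448-107964758. It had 147 fragments in iPou4f3 (124 to 173, fold 17.6), 120 in iG+P (99.5 to 143, fold 13.2), 59 in iP+A (44.9 to 76.1, fold 6.79) and 137 in iGPA (115 to 162, fold 20.1). The iP+A interval lay below the other 3. The site is downstream of Bsn and 289 bp from a start of Rnf123, a ubiquitin ligase gene, whose body it lies in. A Pou4f match lay 6 bp from its summit. Within Bsn, an intron site 20316 bp from the start was present in all 4 Pou4f3 lists, with fold 4.87 for iPou4f3, 4.93 for iG+P, 3.51 for iP+A and 8.74 for iGPA.

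An Atoh1 site in an intron of Bsn, chr9:108035821-108036169, was the only one outside the run downstream of Pclo that was found in all 4 Atoh1 lists. It had 28 fragments in iAtoh1 (18.6 to 40.5, fold 3.54), 22 in iG+A (13.8 to 33.3, fold 3.07), 27 in iP+A (17.8 to 39.3, fold 3.01) and 50 in iGPA (37.1 to 65.9, fold 6.28). The iGPA interval lay above that of iG+A and overlapped those of iAtoh1 and iP+A. A full 10-letter Atoh1 E-box lay 2 bp from the summit. At the Bsn start, Atoh1 summits of fold 2.81, 3.07 and 2.90 in iAtoh1, iG+A and iP+A and a Pou4f3 summit of fold 3.04 in iPou4f3 formed 1 site, without iGPA. Another Atoh1 site, 141317 bp from the gene start and 202 bp from a start of Gmppb, equalled the intron site in fold, 6.28 in iGPA.

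Pclo lies on the plus strand at chr5:14514918-14863457, a body of 349 kb. Without its downstream flank it had 8 sites, and the strongest was an intron site 111188 bp from the start with Pou4f3 in all 4 lists. The counts were 44 fragments in iPou4f3 (32.0 to 59.1, fold 5.35), 45 in iG+P (32.8 to 60.2, fold 5.03), 30 in iP+A (20.2 to 42.8, fold 3.51) and 56 in iGPA (42.3 to 72.7, fold 8.30). The 4 intervals overlap, that of iP+A ending at 42.8 where that of iGPA begins at 42.3. A Pou4f match lay 7 bp from the summit. The strongest Atoh1 site, in an intron 236147 bp from the start, had summits in both lines with Pou4f3 and neither of the others, with fold 3.12 in iP+A and 5.05 in iGPA.

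A site 7060 bp upstream of Pclo was the only one outside the downstream run with all 3 factors. Gfi1 had 20 fragments (12.2 to 30.9) and fold 4.62 there, Atoh1 had fold 2.80 in iP+A and 3.08 in iGPA, and Pou4f3 had fold 3.35 in iGPA. In iGPA the Atoh1 and Pou4f3 summits were 29 bp apart. The site that Pclo's window had in the most lists, 5 lists with fold of up to 4.52, was in the downstream run. The remaining Gfi1 summit of the members was also in that run, where Gfi1 had 59 fragments over a background of 20.2 (fold 2.83).

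**Figure D5:**
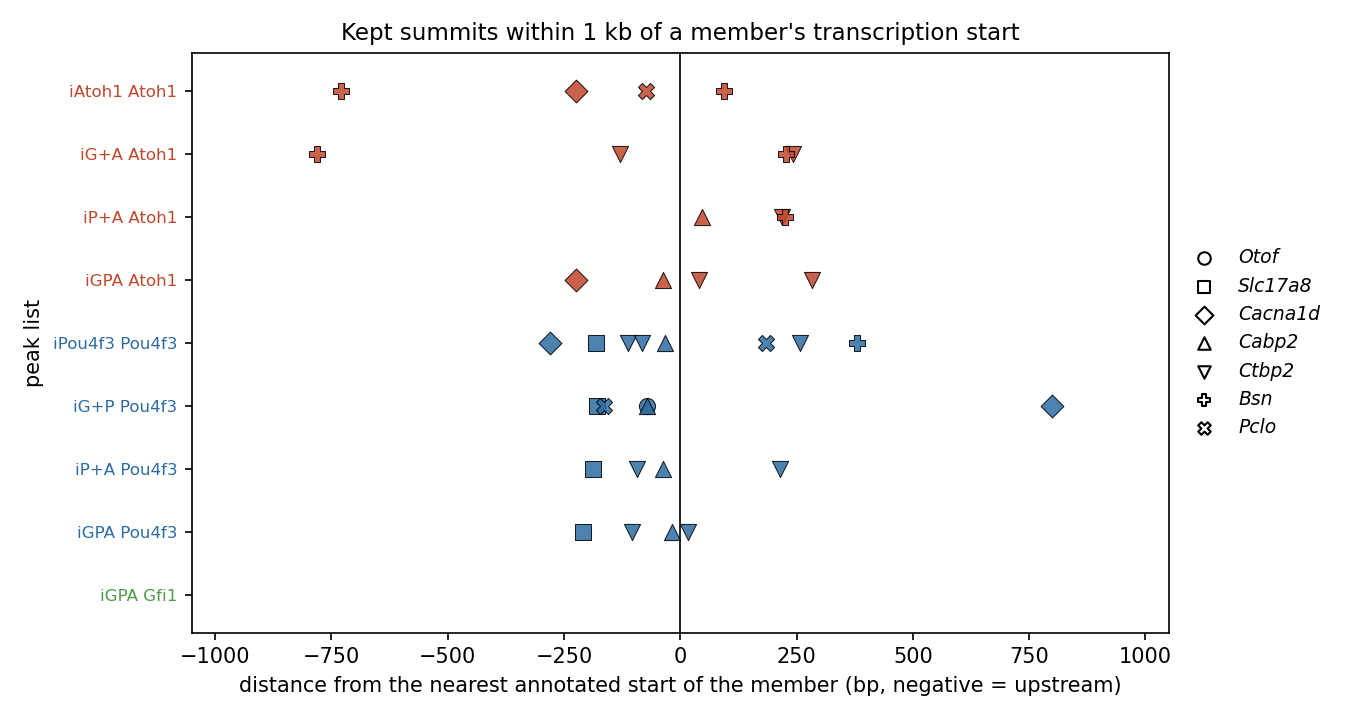
Kept summits within 1 kb of an annotated start of a member, as distance in bp from the nearest start of that gene (negative is upstream), by peak list. Slc17a8 (squares) and Cabp2 (triangles) have a summit in all 4 Pou4f3 rows, and Ctbp2 (inverted triangles) has summits 92 to 113 bp upstream in 3 of them.

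A summit within 1 kb of a member's own start was found at 6 of 7 members in the Pou4f3 list of iPou4f3, 5 for iG+P, 3 for iP+A and 3 for iGPA. In the Atoh1 lists the number was 3 for iAtoh1, 2 for iG+A, 3 for iP+A and 3 for iGPA, and it was 0 for Gfi1. Over all protein-coding genes such a summit was found at 26.1% in the Pou4f3 list of iPou4f3, 20.7% for iG+P, 14.2% for iP+A and 9.96% for iGPA. The share was 12.2%, 20.9%, 18.5% and 26.1% in the Atoh1 lists of the same lines as above, and 4.81% for Gfi1. Of the 23 other presynaptic genes, 8, 7, 1 and 4 had one in the same order of Pou4f3 lists. The 3 members in the Pou4f3 lists of iGPA and iP+A were Slc17a8, Cabp2 and Ctbp2 in both, and Slc17a8 and Cabp2 had such a summit in all 4 Pou4f3 lists. Ctbp2 has 19 annotated starts and Slc17a8 has 2, so members did not offer equal numbers of places for such a summit. Among the sites without the run, 26 of 61 (42.6%, 30.0 to 55.9) were within 1 kb of a start of any gene, 13 of them of a member, and with it 26 of 85 (30.6%, 21.0 to 41.5), against 25.6% of sites in the windows of all genes.

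For the question of how partner factors change occupancy, the 37 Atoh1 sites without the run were compared across lines, and the last value in each bracket is for all 60 sites with it. Only 1 of 37 was found in all 4 Atoh1 lists (2.70%, 0.0684 to 14.2, with the run 3.33%), against 11.3% in the windows of all genes. Of these sites 16 came only from lines that also carried Pou4f3, iP+A or iGPA (43.2%, 27.1 to 60.5, with the run 31.7%), against 39.2% for all genes. The 5 that were present in both of these lines and in neither of the others (13.5%, 4.54 to 28.8, with the run 8.33%), against 7.68%, were the Cabp2 start, the Cacna1d intron site at fold 5.91, a site 43713 bp upstream of Cabp2 that lay 47 bp from a start of Gstp1, and the upstream and intron sites of Pclo. A further 11 sites were found in the iGPA list alone (29.7%, 15.9 to 47.0, with the run 18.3%), against 21.4%. From lines that also carried Gfi1, iG+A or iGPA, and from no other came 20 sites (54.1%, 36.9 to 70.5, with the run 48.3%), against 42.7%. Of these 20, 5 were present in both iG+A and iGPA, in the windows of Cabp2, Ctbp2, Bsn and Pclo. The 11 sites of iGPA alone count among the 16 and among the 20. Each of these intervals holds the value for all genes, and the shares of lines with Pou4f3 and of iGPA alone lay above it without the run and below it with the run. Of the 9 Atoh1 sites of iAtoh1, 5 were also in iGPA (55.6%, 21.2 to 86.3, with the run 42.1% of 19), against 56.9%, and the other 4 were at the Bsn start, a coding exon of Bsn, the Pclo start and an intron of Cacna1d.

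Of 33 Pou4f3 sites without the run, 9 were in all 4 Pou4f3 lists (27.3%, 13.3 to 45.5, with the run 20.9%), against 14.5% in the windows of all genes, and they were spread over 6 of the 7 genes, all but Cacna1d. Of the 21 sites of iGPA, 16 (76.2%, 52.8 to 91.8) were also in iPou4f3, against 59.9%. For iG+P the number was 14 (66.7%, 43.0 to 85.4, against 72.7%) and for iP+A 13 (61.9%, 38.4 to 81.9, against 49.5%). In iGPA 5 sites had Atoh1 and Pou4f3 summits. They were 17.9% of its 28 Atoh1 sites (6.06 to 36.9, with the run 13.9% of 36), against 15.1%. This share lay above that of all genes without the run and below it with the run. Of the 21 Pou4f3 sites of iGPA they were 23.8% (8.22 to 47.2, against 23%). They included the Cabp2 start, the Ctbp2 intron site and 2 sites of Pclo.

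At shared sites iGPA most often had the highest fold for both factors, and most often the most fragments for Atoh1 but not for Pou4f3. Among 18 Pou4f3 sites in iGPA and at least 1 other Pou4f3 list, iGPA had the highest fold in 15 and the most fragments in 6. Its interval lay above that of another list in 2. Over the windows of all genes these shares were 67.7%, 32.3% and 9.07%. Without the run, 17 Atoh1 sites were in iGPA and at least 1 other Atoh1 list. Among these iGPA had the highest fold in 14 and the most fragments in 12, and its interval lay above another in 3. The corresponding shares for all genes were 64.7%, 66.0% and 16.1%. The Pou4f3 list of iGPA had the lowest usual background of the 8 lists, 5.87 fragments against 6.49 to 8.30, which raises fold at a given count.

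The Pou4f pattern stood within 250 bp around the summit at 15 of 23 sites from Pou4f3 lists without Atoh1 (65.2%, 42.7 to 83.6), against 44.9% of such sites in the windows of all genes and 9.43% of windows 1000 bp away. The interval holds the value for all genes. At the 15 member sites the match lay a median of 13 bp from the summit, with a range of 3 to 88 bp, against a median of 20 bp for all genes. Without a mismatch the pattern stood at 2 of the 23 sites (8.7%, 1.07 to 28.0), against 8.11%. Among sites from Atoh1 lists without Pou4f3, 1 of 27 held the pattern with up to 1 mismatch (3.70%, 0.0937 to 19, against 4.54%). The E-box core stood at 25 of these 27 (92.6%, 75.7 to 99.1), against 73.3% for all genes and 31.3% of windows 1000 bp away. With the run it stood at 28 of 41 (68.3%, 51.9 to 81.9), below the share for all genes, so the excess was present only without the run. The core also stood at 8 of the 23 Pou4f3 sites without Atoh1 (34.8%, 16.4 to 57.3, against 26.1%). The stricter 10-letter E-box was found at 8 of the 27 Atoh1 sites (29.6%, 13.8 to 50.2), or 8 of 41 with the run (19.5%), against 18.7% for all genes. It was found at 0 of the 23 Pou4f3 sites, against 1.16%. No member site held the Gfi1 pattern, AATCACAGC or AATCACTGC, which 0.709% of sites in all gene windows held.

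Of 15 Pou4f3 sites within 1 kb of a start of any gene, 3 held it (20.0%, 4.33 to 48.1), against 14 of 18 farther away (77.8%, 52.4 to 93.6). In the windows of all genes the shares were 9.79% and 44.8%, so the Pou4f pattern was rarer near starts in both. The 3 were those at the start of Ctbp2-004, beside Zranb1 and beside Rnf123, while the sites at the starts of Slc17a8, Cabp2 and Otof had none. A match or its absence is a description of these letters in this window.

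The 23 other presynaptic genes, listed by role from general knowledge, were counted in the same way. Cabp4, which is on this list, lies in the window of Cabp2, so summits there can be counted in both sets. Between 17 and 20 of 23 had a summit in each Atoh1 and Pou4f3 list, which is 73.9% to 87.0%, against 53.1% to 76.7% of all genes. In the Gfi1 list 12 of 23 (52.2%) had a summit, against 23.2% of all genes. Their median body was 49.3 kb, against 15.4 kb for all genes. No gene of the list lacked a summit in every list. Cacna1f and Syp, named here after their values were seen, had 1 Gfi1 summit each and no Atoh1 or Pou4f3 summit. Of all genes, 9.12% had no summit of Atoh1 or Pou4f3. The 5 with a summit in all 9 lists and the most summits were Vamp2, a vesicle SNARE, with 54, Rimbp2, an active zone scaffold, with 47, Cacna2d2, a calcium channel subunit, with 43, Slc17a7, a paralogue of Slc17a8, with 37, and Erc1, an active zone scaffold, with 31. The window of Slc17a7 held 21 Atoh1 summits and that of Slc17a8 none, and the starts nearest to those summits were not examined. Only Rims1, chosen here after its values were seen, had Pou4f3 summits (10, in all 4 lists) and no Atoh1 summit, as Otof and Slc17a8 did.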

How the data were processed

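The data were 9 ChIP-seq peak lists from 17 ChIP and 12 input libraries of 6 lines. According to the study's methods and the labels, the authors trimmed reads with Trimmomatic, aligned them to mm9 with Bowtie 2, marked duplicates with Picard, removed blacklisted regions, and called peaks on merged replicates against merged inputs with MACS 2. Tool versions are not given in the sources used here, nor is the rule by which summits were kept. The deposited peak files give fold enrichment, a ratio of fragments to local background, and p-values and q-values as −log10, of which the q-values were not used. The deposited summit files give a score, which was used for no result.

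The members and the list of other presynaptic genes were chosen with earlier results of these data known. A peak was used when its summit was in the kept set. Fragments and local background were recovered from fold and −log10 p with a tolerance of 0.001. Sites were joined from 300 bp windows, patterns were searched in 250 bp on both strands, and genes came from the GENCODE release built on NCBIM37, the same assembly as mm9. Sites described in full were those in the most lists and of the highest fold for each factor, and up to 5 other genes with a summit in the most lists. A comparison of lists at a site picked for its highest fold favours the list that supplied it. The site of the highest Pou4f3 fold in the window of Cabp2 is not reported here. Intervals are Clopper-Pearson for shares and exact Poisson for counts, at 95%, and neighbouring sites are not independent. The recovery, joining and pattern search were tested on simulated data. Python 3.11.15, NumPy 2.4.6, SciPy 1.17.1 and matplotlib 3.10.9 were used. Alternatives were other window sizes around genes, body only, a −log10 p of at least 10, all called peaks, lists of equal length, nearest start, other merge windows, other patterns, and, chosen after seeing the data, leaving out the 50 kb downstream of Pclo.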

Additional observations from a re-analysis of the deposited data

How the results depend on the processing

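No paired analysis was possible because peaks were called on merged replicates, so no list can be split by replicate number or refitted without a replicate. Values below are counts at the 7 genes that moved by more than 1.5 times from those over the whole windows, the run downstream of Pclo included (85 sites, 19 with both factors), in the order iAtoh1, iG+A, iP+A and iGPA for Atoh1 lists and iPou4f3, iG+P, iP+A and iGPA for Pou4f3 lists. With gene bodies alone the summits were 7, 10, 8 and 15 for Atoh1, 13, 10, 8 and 11 for Pou4f3 and 0 for Gfi1, genes with a summit were 3 in iAtoh1 and 0 for Gfi1, and 37 sites remained, 7 with both factors. With 10 kb to each side the Atoh1 summits were 11, 13, 12 and 20, those of Pou4f3 in iG+P were 18, and there were 46 sites, 11 with both factors. With 100 kb to each side the summits were 29 for Atoh1 in iP+A, 39 for Pou4f3 in iPou4f3 and 24 for Pou4f3 in iP+A, and 29 sites had both factors. When only peaks with −log10 p of 10 or more were used, the summits were 2, 6, 3 and 14 for Atoh1, 13, 10, 5 and 12 for Pou4f3 and 1 for Gfi1. Genes with a summit were then 2 for Atoh1 in iAtoh1, 3 for Atoh1 in iP+A, 3 for Pou4f3 in iP+A and 1 for Gfi1, and 30 sites remained, 2 with both factors. With all called peaks the summits were 40, 56 and 38 for Atoh1 in iAtoh1, iG+A and iP+A and 49 and 36 for Pou4f3 in iG+P and iP+A, and 35 sites had both factors. With lists cut to equal length the summits were 17 for Atoh1 in iGPA and 14 for Pou4f3 in iG+P, and the Gfi1 list was not included. Where the nearest annotated start had to be that of a member, they were 8, 8, 6 and 13 for Atoh1, 15, 13 and 13 for Pou4f3 in iPou4f3, iG+P and iGPA, and 1 for Gfi1. Without the 50 kb downstream of Pclo, an alternative chosen after seeing the data, they were 9, 16 and 11 for Atoh1 in iAtoh1, iG+A and iP+A, and 10 sites had both factors. The 6-letter E-box core stood at 56.5% of all 85 sites where the 10-letter E-box stood at 11.8%, and the Pou4f pattern without a mismatch at 2.35% where 1 mismatch gave 22.4%. Merge windows of 100 bp or 1000 bp moved neither count of sites by more than 1.5 times. The share of all protein-coding genes with a summit was not computed for any of these alternatives. The cause of each move is the construction of the alternative, which adds or removes sequence, peaks or letters. A site just under the lowest kept count of 14 to 21 fragments is absent from a list.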
